A study of Mus musculus with 7 samples.

Results

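Nuclear receptors are transcription factors that bind DNA through zinc fingers and are, in many members, switched by small lipid-soluble ligands such as steroids, thyroid hormone, retinoic acid, oxysterols and fatty acids. Here 46 members of the family were followed in the quadriceps of AR113Q mice, a knock-in model of spinal and bulbar muscular atrophy (SBMA), a polyglutamine disease, with an expanded CAG tract, at an age before motor symptoms. Members were the genes of the family without the one that carries the tract, taken by gene symbol or RefSeq accession from the array annotation, and all 46 had a probe, of 31131 named genes on the array. In skeletal muscle several of these receptors are known regulators of fuel use, fiber type, the circadian clock and proteolysis.

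The samples were quadriceps RNA of C57BL/6 mice labelled as 3 months old, which the design text gives as 90 days, with 4 WT and 3 AR113Q arrays. In AR113Q mice the mutant allele is expressed from the endogenous locus, in the cells that normally use it. Labels and legends name the controls WT, but the results text speaks of a knock-in control line with a tract of normal length, so the control allele is not settled. RNA was labelled with Cy3 and hybridized to single-colour Agilent arrays of 39429 probes, and every value below is a quantile-normalized log2 intensity or a difference of such values, AR113Q minus WT.

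Between 47.6% and 55.8% of probes were well above background on each array. Pearson correlations between arrays were 0.983 to 0.987 within WT, 0.969 to 0.982 within AR113Q and 0.910 to 0.943 between genotypes. The arrays lay on 5 slides, and WT replicate 2 shared slide 2 with AR113Q replicate 1, the only slide with both genotypes. All 13 skeletal muscle markers tested were above background on all 7 arrays, so the labelled tissue fits its markers. With so few arrays, small differences cannot be resolved. The labels do not say how the replicates were raised, so p-values measure only the spread between these samples.

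Probes entered the comparison when 3 or more of the 7 arrays measured them well above background, and each gene was represented by its brightest kept probe. Of the 46 members, 33 were tested, and 29 of these were above background on all 7 arrays. The other 4 tested members, Nr5a1, Nr5a2, Rorb and Nr3c2, were not above background on every array. Not well above background on any array were 10 members, the liver and gut factor genes Hnf4a and Hnf4g, the orphan repressor genes Nr0b1 and Nr0b2, the xenobiotic receptor gene Nr1i2, the retinal and neural genes Nr2e1 and Nr2e3, Nr4a3, the germ cell factor gene Nr6a1 and the progesterone receptor gene Pgr. Nr1i3, another xenobiotic receptor gene, passed on 1 AR113Q array, and the bile acid receptor gene Nr1h4 on 1 array of each genotype. Vdr, which encodes the vitamin D receptor, passed on none of the 4 WT and on 2 of the 3 AR113Q arrays, at 2.59, 3.02, 4.04 and 1.67 in WT and 3.83, 4.50 and 5.61 in AR113Q. The values of the genotypes overlapped and the gene was not tested.

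Genes with a log2 fold change of 1 or more in either direction counted as differentially expressed genes (DEGs) when their p-value, adjusted over all 16577 genes, was 0.05 or lower. In AR113Q muscle 3 of the 33 tested members were upregulated, where 11.2% of all tested genes were upregulated DEGs. Another 3 were downregulated, where the share over all genes was 13.2%. Without a fold change threshold 6 members were higher and 5 lower at an adjusted p of at most 0.05, beside 21% and 22.6% of all genes. The genotypes did not overlap in 14 members (6 higher and 8 lower in AR113Q), beside 49.3% of all genes. The median log2 fold change of the 33 members was 0.05, and that of all tested genes was -0.01. The counts of DEGs in the family were thus near the shares over all genes. The same shares, 11.2% and 13.2%, are the background for the counts of each list of genes below. No list was tested against them. With slide as a fixed block in limma, 0 members and 0 genes of all tested were DEGs. That fit leaves little beyond the comparison within slide 2 and the pair of WT arrays on slide 4. In it 11 of the 33 members and 6194 of all 16577 genes had an unadjusted p of at most 0.05.

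**Figure D1:**
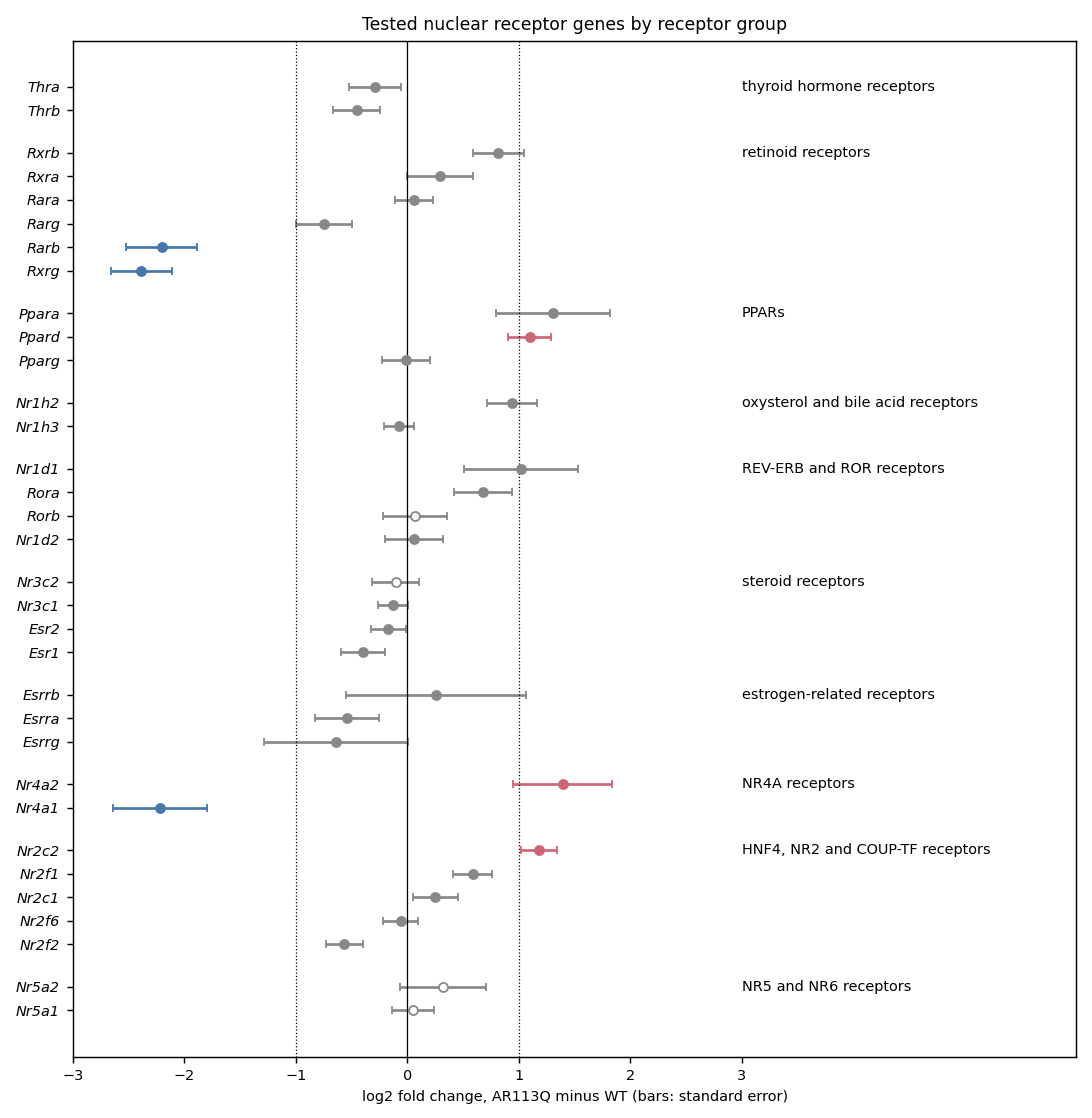
Log2 fold change (AR113Q minus WT, x axis) with its standard error for the 33 tested members, ordered within receptor groups; dotted lines mark the fold change threshold of 1. Blue points are downregulated DEGs (Rxrg, Nr4a1, Rarb), red points are upregulated DEGs (Nr4a2, Nr2c2, Ppard), grey points are the rest, and open points were not above background on all 7 arrays.

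Retinoid receptors gave 2 of the 3 downregulated DEGs. The RAR genes encode retinoic acid receptors, which act as heterodimers with an RXR, and the RXRs are shared partners of many other members. Rxrg, the RXR gene best known for its expression in skeletal muscle, had WT values of 13.09, 12.80, 13.16 and 13.61 and AR113Q values of 10.23, 10.94 and 11.17. All AR113Q arrays lay below all WT arrays, and the gene decreased 5.22-fold (log2 fold change -2.38, SE 0.28, adjusted p = 0.000513, where SE is the standard error). A second probe, 128 bases away, gave a log2 fold change of -2.23. The probe that stands for Rxrg lies at chr1:169569624-169569683 of mm9.

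Rarb, a retinoic acid receptor gene that is itself induced by retinoic acid, was measured at 9.20, 8.79, 8.62 and 8.34 in WT and at 6.00, 6.39 and 7.22 in AR113Q muscle. The genotypes were separated, and the decrease was 4.60-fold (log2 fold change -2.20, SE 0.32, adjusted p = 0.0012). Its second kept probe gave a smaller log2 fold change of -1.05 that did not pass the test (adjusted p = 0.0768 over probes), and AR113Q replicate 3, at 6.23, lay within the WT range of 5.65 to 6.42. With the authors' values the log2 fold change of Rarb was -1.25. The probe used lies at chr14:17263367-17263426 of mm9. Within slide 2 the log2 differences were -2.57 for Rxrg and -2.79 for Rarb.

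The promoter of Rarb is shown because it holds the classical retinoic acid response element, and that of Rxrg because this was the most decreased member. Both come from RefSeq on GRCm38.p6 and cover the 250 bases before a start site, 5′ to 3′. Capitals in Rarb mark GTTCA and AGTTCA with 5 bases between them, a direct repeat, at positions -52 to -37 from the start. Capitals in Rxrg mark AAAGGTCA, the letters bound by NR4A receptors as monomers, which contain the receptor half-site AGGTCA. The Rarb window is chr14:16575477-16575726 on the minus strand and the Rxrg window, at the downstream of its start sites, is chr1:167618015-167618264 on the plus strand.
Rarb: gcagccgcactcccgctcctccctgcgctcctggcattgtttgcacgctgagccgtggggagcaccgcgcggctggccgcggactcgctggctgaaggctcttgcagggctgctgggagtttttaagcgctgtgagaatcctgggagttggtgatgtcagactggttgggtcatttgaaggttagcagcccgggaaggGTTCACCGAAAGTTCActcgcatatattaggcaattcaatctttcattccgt
Rxrg: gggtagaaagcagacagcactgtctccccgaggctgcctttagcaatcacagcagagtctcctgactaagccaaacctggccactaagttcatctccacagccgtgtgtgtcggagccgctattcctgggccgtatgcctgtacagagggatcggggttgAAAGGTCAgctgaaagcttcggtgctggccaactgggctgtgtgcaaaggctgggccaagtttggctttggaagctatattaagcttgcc
Of 32851 promoter windows of the same length, 0.0274% held the Rarb repeat on either strand and 1.34% held AAAGGTCA. A window was found for 42 of the 46 members, and Rarb was the only member with the repeat, while Rxra was the other member with AAAGGTCA. None held AGAACA and TGTTCT with 3 bases between them, a palindrome of the type bound by steroid receptors, which occurred in 0.00913% of all windows. The half-site AGGTCA alone was in 14% of windows and 10 members, and the E-box CACGTG in 6.02% and 5 members. These matches describe letters and not binding.

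Of the other retinoid receptor genes, Rarg and Rxrb passed the test below the fold change threshold and in opposite directions. Rarg had WT values of 9.42, 9.74, 9.67 and 9.73 and AR113Q values of 9.18, 9.23 and 8.27, at a log2 fold change of -0.74 (adjusted p = 0.0427). Its adjusted p was between 0.058 and 0.0921 when any WT array was left out and 0.0642 without AR113Q replicate 3, where the log2 fold change was -0.43. It was 0.071 with scaling to the 75th percentile, 0.091 with no filter on dim probes and 0.104 with the replicate block. Rxrb was at 12.39, 12.65, 12.54 and 12.50 in WT and 13.85, 13.24 and 12.92 in AR113Q, and its log2 fold change was 0.82 (adjusted p = 0.0205). Without AR113Q replicate 3 it was 1.02 and passed both thresholds, while it was 0.56 without AR113Q replicate 1. Rxrb did not pass the test without WT replicate 1 (adjusted p = 0.0546) or with the replicate block (0.0701). Rara was at 10.35 to 10.59 in WT and 10.24 to 10.73 in AR113Q (log2 fold change 0.06). Rxra gave 0.30 by its brighter probe, with overlapping genotypes, or -0.06 without AR113Q replicate 1, and 1.12 by its other probe (adjusted p = 0.0135 over probes), on which all AR113Q arrays lay above all WT arrays.

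**Figure D2:**
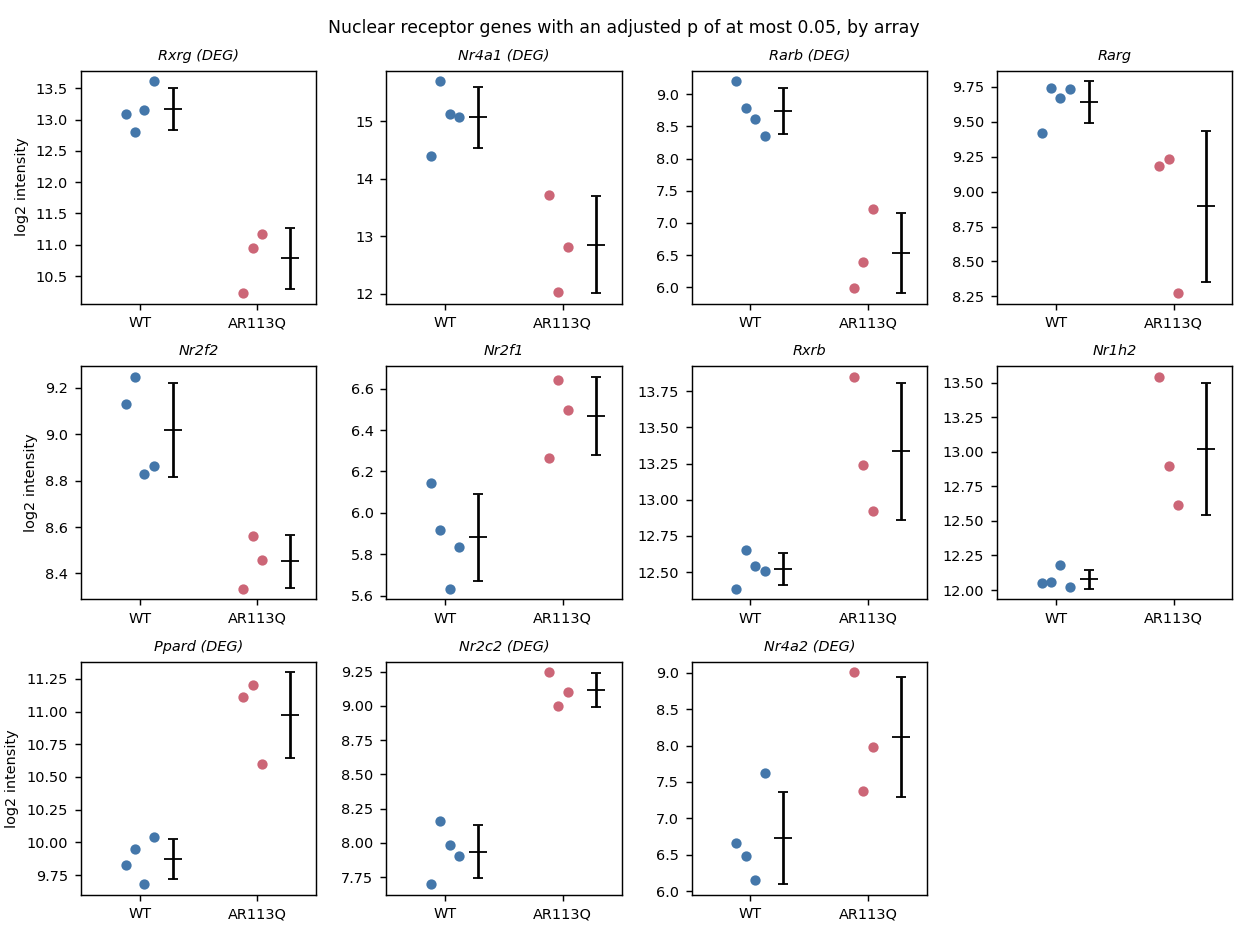
Log2 intensity (y axis, scaled to each gene) on each of the 4 WT (blue) and 3 AR113Q (red) arrays for the 11 members with an adjusted p of at most 0.05; bars give mean ± SD. The genotypes overlap only for Nr4a2, where WT replicate 4 at 7.62 lies above AR113Q replicate 2 at 7.38.

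Among genes for retinoid supply and breakdown, 4 of the 11 tested were downregulated and 1 was upregulated, with a median log2 fold change of -0.58. Aldh1a2, which encodes an enzyme that makes retinoic acid, had a log2 fold change of -3.75 (adjusted p = 0.000449) and was above background on 2 of the 3 AR113Q arrays. Rbp4, encoding the plasma carrier of retinol, had -2.74 and Aldh1a1, another retinaldehyde dehydrogenase gene, 1.09. The Aldh1a1 call was lost without WT replicate 3, WT replicate 4 or AR113Q replicate 3. Of 8 tested target genes of retinoic acid receptors, Rarb itself was the only DEG, and the number downregulated was 2 without WT replicate 2 or AR113Q replicate 3.

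Fibroblast and adipocyte markers were mostly lower in AR113Q muscle, while calls in other cell types were few or mixed. Of 12 fibroblast markers 9 were downregulated and 0 upregulated, and their summed intensity was 120398 to 151488 intensity units in WT and 77151 to 110856 in AR113Q arrays. Of 10 adipocyte markers 6 were downregulated, with sums of 111871 to 129979 in WT and 41034 to 50202 in AR113Q. Adipoq and Plin1, which define adipocytes, were above background on all arrays, as were the fibroblast markers Col1a1 (log2 fold change -3.27) and Pdgfra (-0.27). In each list 1 marker was higher in AR113Q without overlap, Dcn at 0.41 (adjusted p = 0.0696) for fibroblasts and Lipe at 0.90 (0.011) for adipocytes. Of 11 endothelial markers 1 was upregulated and 1 downregulated, and of 12 macrophage markers 2 and 3. Of 7 tested satellite cell markers 2 were upregulated and 1 downregulated, and of 8 Schwann cell markers 0 and 1. Satellite cell sums were 7502 to 7916 in WT and 5081 to 6717 in AR113Q. Endothelial, macrophage and Schwann cell sums overlapped between genotypes. The part of these cells in the receptor values was not tested, and in a bulk sample fewer cells of a type and less RNA per cell cannot be told apart. Pparg, the receptor gene that defines fat cells, was at 8.66, 9.04, 8.47 and 9.07 in WT and 8.96, 8.46 and 8.98 in AR113Q, a log2 fold change of -0.01.

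NR4A receptors, which are induced rapidly by cyclic AMP, exercise and stress and need no known ligand, went in opposite directions. Nr4a1 was at 14.40, 15.69, 15.12 and 15.07 in WT and at 13.72, 12.03 and 12.81 in AR113Q muscle. No AR113Q array reached the lowest WT array, and the decrease was 4.65-fold (log2 fold change -2.22, SE 0.42, adjusted p = 0.0041). Nr4a2 was at 6.66, 6.48, 6.15 and 7.62 in WT and at 9.01, 7.38 and 7.98 in AR113Q, at a log2 fold change of 1.39 (SE 0.45, adjusted p = 0.0352). Its genotypes overlapped, and its second probe gave 1.18 (adjusted p = 0.0454 over probes). Nr4a3 was not above background on any array.

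The Nr4a2 call was lost when WT replicate 1 (adjusted p = 0.0733), WT replicate 2 (0.0791), WT replicate 3 (0.0788), AR113Q replicate 1 (0.115) or AR113Q replicate 3 (0.062) was left out. Without AR113Q replicate 1, the highest of its arrays, the log2 fold change was 0.95. The call was also lost with normexp background correction (0.90), with the authors' values (0.74) and with no filter on dim probes (adjusted p = 0.0903). Within slide 2 the difference was 2.52 for Nr4a2 and -1.98 for Nr4a1. The probes lie at chr15:101105071-101105130 for Nr4a1 and chr2:56960699-56960758 for Nr4a2, both of mm9.

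The promoters of the NR4A genes are printed because each holds several cores of the cyclic AMP response element, a feature picked out after the matches were counted. Capitals mark TGACG on the printed strand or CGTCA, which is TGACG on the other strand. The 250 bases before each start, on GRCm38.p6 from RefSeq, are chr15:101266596-101266845 on the plus strand for Nr4a1, chr2:57124004-57124253 on the minus strand for Nr4a2 and chr4:48045055-48045304 on the plus strand for Nr4a3.
Nr4a1: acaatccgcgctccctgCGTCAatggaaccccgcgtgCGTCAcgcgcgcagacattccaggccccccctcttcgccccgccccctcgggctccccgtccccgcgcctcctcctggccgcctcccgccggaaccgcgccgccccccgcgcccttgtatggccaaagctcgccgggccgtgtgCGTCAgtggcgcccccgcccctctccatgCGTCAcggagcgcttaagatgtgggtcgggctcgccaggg
Nr4a2: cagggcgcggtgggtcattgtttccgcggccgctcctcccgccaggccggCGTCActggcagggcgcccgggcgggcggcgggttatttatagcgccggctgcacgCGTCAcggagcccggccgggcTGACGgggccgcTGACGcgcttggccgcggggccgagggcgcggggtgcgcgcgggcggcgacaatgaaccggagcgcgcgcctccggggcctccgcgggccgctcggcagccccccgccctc
Nr4a3: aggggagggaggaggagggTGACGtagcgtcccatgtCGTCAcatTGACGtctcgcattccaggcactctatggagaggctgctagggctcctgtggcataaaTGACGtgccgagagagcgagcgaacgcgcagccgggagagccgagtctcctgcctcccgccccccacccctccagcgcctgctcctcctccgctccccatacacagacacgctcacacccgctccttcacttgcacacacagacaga
Each of the 3 windows held 4 copies, where 17.8% of all windows and 13 members held any and 0.137% of all windows held 4 or more. The full palindrome TGACGTCA, which contains the core, was in none of them and in 1.55% of all windows. Of these genes Nr4a1 decreased, Nr4a2 increased in a call that several settings lost, and Nr4a3, with 1 probe, was not above background on any array. A link between the letters and these values was not tested.

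Of 9 tested NR4A target genes of muscle glucose use and metabolism, 4 were downregulated and 1 upregulated, with a median log2 fold change of -0.57. Prkag3, a regulatory subunit gene of AMP-activated protein kinase, had -2.36 (adjusted p = 0.000723) and Phka1, a phosphorylase kinase subunit gene, -1.95. The gene that increased, Ucp3 at 1.32, is also in the PPAR and thyroid hormone lists, and its call was lost without WT replicate 1, AR113Q replicate 1 or AR113Q replicate 3. The number downregulated was 4 with each array left out in turn.

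Peroxisome proliferator-activated receptors (PPARs) sense fatty acids and drive fatty acid oxidation. Ppard, the predominant PPAR gene in skeletal muscle, was at 9.83, 9.95, 9.68 and 10.04 in WT and at 11.11, 11.20 and 10.60 in AR113Q muscle. All AR113Q arrays were higher, and the gene increased 2.14-fold (log2 fold change 1.10, SE 0.19, adjusted p = 0.00286). Without AR113Q replicate 2 the log2 fold change was 0.98, just under the threshold, and within slide 2 it was 1.16. Its probe lies at chr17:28438298-28438357 of mm9.

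Ppara, the PPAR gene of tissues with high fatty acid oxidation, had a log2 fold change of 1.30 that did not pass the test (adjusted p = 0.071). Its WT values of 7.67, 9.94, 8.99 and 8.77 overlapped the AR113Q values of 9.68, 9.87 and 10.89. WT replicate 2 lay above 2 AR113Q arrays, and without it the log2 fold change was 1.67 and passed (adjusted p = 0.0243). It also passed with normexp background correction (1.04), with the mean over its probes (1.15) and with an intensity trend in eBayes (adjusted p = 0.046), while it was 0.91 without WT replicate 1 (adjusted p = 0.127) and 0.93 without AR113Q replicate 3 (0.203). Its other kept probes gave 0.88 (adjusted p = 0.0289 over probes) and 1.26 (0.0448). Within slide 2 the difference was -0.25. The higher WT arrays, replicates 2 and 3, and the highest AR113Q array, replicate 3, were also those with the highest slow fiber marker sums, given below. The part of fiber type in Ppara was not tested.

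Of 25 tested PPAR target genes 10 were upregulated and 0 downregulated, with a median log2 fold change of 0.88, beside -0.01 over all genes. Acot1 and Acot2, which encode acyl-CoA thioesterases, had log2 fold changes of 4.82 and 3.98. Acot1 was above background on 3 of the 4 WT arrays, so its value rests in part on a WT signal that was not, and without that array, WT replicate 1, it was 4.45. The number upregulated was 8 to 12 with each array left out in turn and 10 with the authors' values. Without AR113Q replicate 3 there was 1 downregulated gene.

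**Figure D3:**
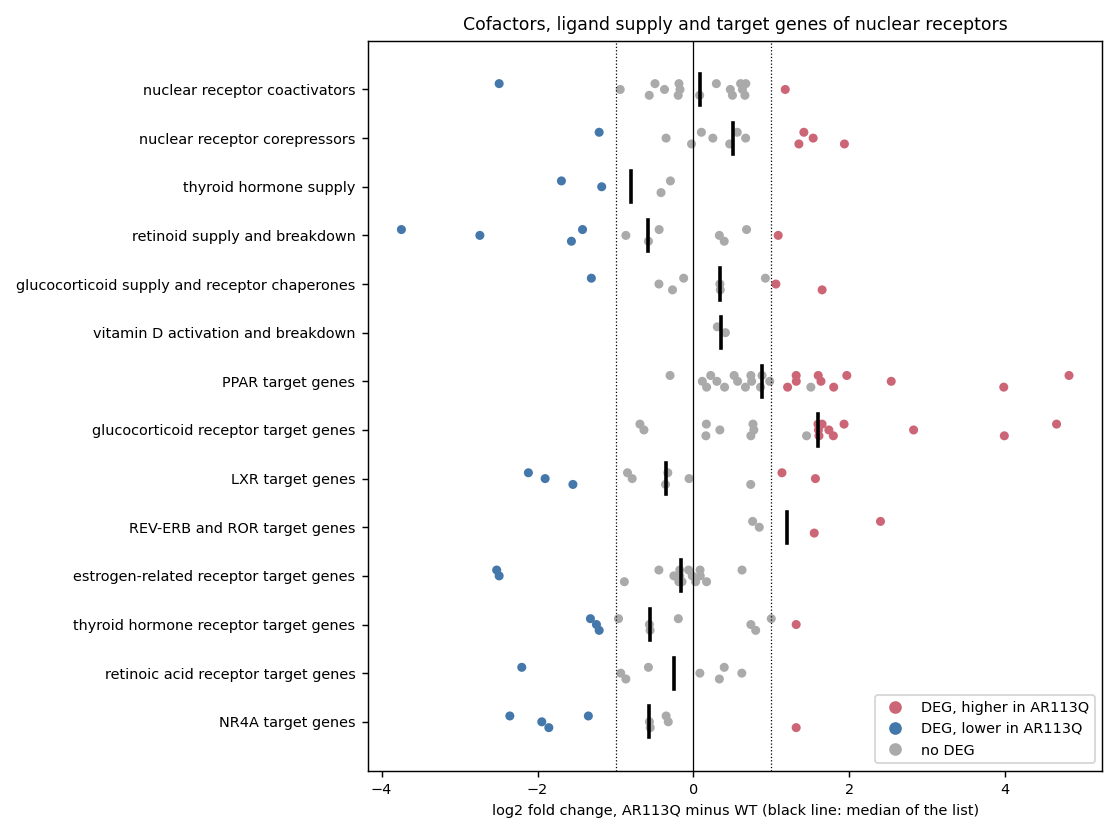
Log2 fold change (x axis, AR113Q minus WT) of each tested gene in the lists of cofactors, ligand supply and receptor target genes; red and blue points are DEGs, grey points are not, and black lines are list medians, with Foxo3 and Smarcd1, above background only in AR113Q, left out. The medians of PPAR and glucocorticoid receptor target genes lie at 0.88 and 1.60, and that of NR4A target genes at -0.57.

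Nr2c2 encodes the orphan testicular receptor TR4, and it increased on both of its probes. It was at 7.70, 8.16, 7.98 and 7.90 in WT and at 9.25, 9.00 and 9.10 in AR113Q muscle, with no overlap. The increase was 2.27-fold (log2 fold change 1.18, SE 0.16, adjusted p = 0.00104), and the other probe gave 1.37. With the authors' values the log2 fold change was 0.84 (adjusted p = 0.000805) and with normexp background correction 0.92 (0.000492), both under the fold change threshold. Within slide 2 it was 1.08, and the probe lies at chr6:92117787-92117846 of mm9. Its close relative Nr2c1 had a log2 fold change of 0.25 with overlapping genotypes. On its second probe, at 0.30, the genotypes were separated, and it did not pass the test (adjusted p = 0.106 over probes).

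The COUP-TF genes went in opposite directions without reaching the fold change threshold. Nr2f2 was at 9.13, 9.25, 8.83 and 8.87 in WT and 8.33, 8.56 and 8.46 in AR113Q, a log2 fold change of -0.57 (adjusted p = 0.0248). Nr2f1 was at 6.14, 5.92, 5.63 and 5.83 in WT and 6.27, 6.64 and 6.50 in AR113Q, a log2 fold change of 0.59 (adjusted p = 0.0282), and its other probe gave 0.49. The genotypes were separated for both genes. The test was not passed by Nr2f2 without WT replicate 1 (adjusted p = 0.0681), WT replicate 2 (0.0656) or AR113Q replicate 1 (0.0655), nor by Nr2f1 when any array but WT replicate 1 or AR113Q replicate 1 was left out (adjusted p from 0.0539 to 0.0869). With the authors' values the log2 fold change of Nr2f1 was 0.19 (adjusted p = 0.0715), with scaling to the 75th percentile 0.39 (0.156) and with normexp 0.28 (0.0599). The third COUP-TF gene, Nr2f6, had -0.06.

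Of the oxysterol receptors, which control cholesterol efflux and fatty acid synthesis, Nr1h2 (LXR beta) passed the test and Nr1h3 (LXR alpha) did not. Nr1h2 was at 12.05, 12.06, 12.18 and 12.02 in WT and at 13.54, 12.90 and 12.61 in AR113Q. All WT arrays lay below all AR113Q arrays, and the log2 fold change of 0.94 (adjusted p = 0.0109) was just under the threshold. Without AR113Q replicate 3 it was 1.14, and with scaling to the 75th percentile 1.01, both past the threshold, while without AR113Q replicate 1, the highest array, it was 0.68. Nr1h3 was at 10.20 to 10.41 in WT and 10.24 to 10.28 in AR113Q, a log2 fold change of -0.08. Of 11 tested LXR target genes 2 were upregulated, with Lpcat3 at 1.56 and Mylip at 1.13, and 3 were downregulated, with Srebf1 at -2.12 and Scd2 at -1.90. Srebf1 encodes a lipogenic factor, Scd2 a desaturase, Lpcat3 an enzyme of phospholipid remodelling and Mylip a ligase that degrades the LDL receptor. The Mylip call was lost without AR113Q replicate 3. The Srebf1 call was lost with normexp background correction (-0.78) and with the authors' values (-0.50), by which 1 of the 11 genes was downregulated.

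REV-ERB and ROR receptors compete for the same DNA elements and set the phase of the circadian clock. Nr1d1, encoding REV-ERB alpha, was at 10.60, 8.81, 9.05 and 10.65 in WT and at 10.44, 10.59 and 11.37 in AR113Q muscle. WT replicates 1 and 4 were high and WT replicates 2 and 3 low, and the log2 fold change of 1.02 did not pass the test (adjusted p = 0.139). Arntl, the clock activator gene that REV-ERBs repress, was at 10.27, 7.97, 7.10 and 9.85 in WT and at 11.26, 11.21 and 11.13 in AR113Q (log2 fold change 2.40, adjusted p = 0.0265). The same WT replicates, 2 and 3, were low for both genes. The labels do not give the time of day of collection, and its part in these values was not tested. Nr1d2 had a log2 fold change of 0.06, with 9.42 to 10.32 in WT and 9.43 to 10.05 in AR113Q.

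The probes of Rora disagreed. The brighter probe was at 10.30, 10.57, 10.36 and 10.47 in WT and 11.76, 10.91 and 10.65 in AR113Q, with a log2 fold change of 0.68 that did not pass the test (adjusted p = 0.0651). Without AR113Q replicate 1, the highest array, the log2 fold change was 0.35. The probe passed with normexp background correction (adjusted p = 0.0432), with probes above background on all 7 arrays (0.0494), with an intensity trend in eBayes (0.042) and without AR113Q replicate 3 (0.91, adjusted p = 0.0231), and the mean over both probes gave -0.48. The other probe, 715 kb away and assigned to another transcript record, was at 5.96, 5.58, 6.08 and 5.66 in WT and at 4.37, 4.44 and 3.74 in AR113Q. That probe passed, at a log2 fold change of -1.63 (adjusted p = 0.000966 over probes), and on both probes the genotypes were separated, in opposite directions. They lie at chr9:69226774-69226833 and chr9:68511835-68511894 of mm9. Rorb was above background on 2 WT and 3 AR113Q arrays, with a log2 fold change of 0.07. Of 4 tested target genes of these receptors 2 were upregulated, Arntl and, at 1.55, Nfil3, and the Arntl call was lost without WT replicate 2, AR113Q replicate 1, AR113Q replicate 2 or AR113Q replicate 3.

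**Figure D4:**
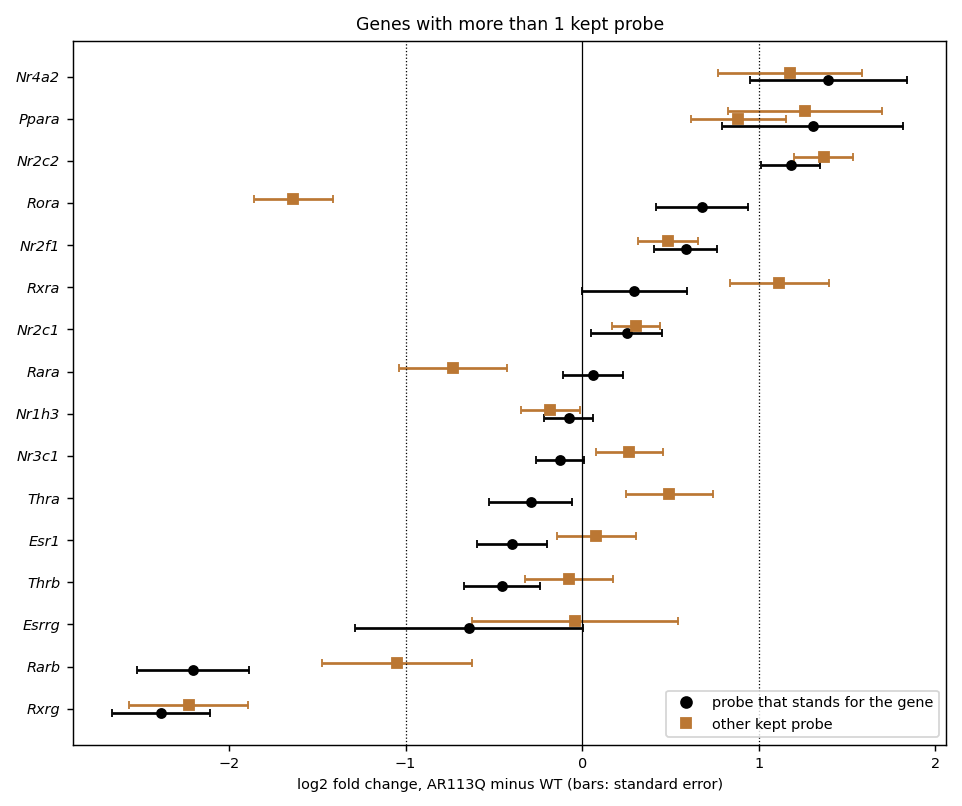
Log2 fold change (x axis, AR113Q minus WT) with its standard error for each kept probe of the 16 members with more than 1; black circles are the probes that stand for the gene and brown squares the others. The probes of Rora lie on opposite sides of 0, at 0.68 and -1.63, while those of Rxrg, Nr2c2 and Nr4a2 lie close together.

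In the family as a whole, the kept probes of 11 of these 16 genes had the same sign and those of 5 had both. Apart from Rora these were Rara (0.06 and -0.73), Thra (-0.29 and 0.49), Nr3c1 (-0.13 and 0.27) and Esr1 (-0.40 and 0.08), and none of these 8 probes passed the test.

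None of the 4 tested steroid receptor genes passed the test. Nr3c1, the glucocorticoid receptor gene, was at 12.38, 12.33, 12.40 and 12.27 in WT and at 12.25, 12.17 and 12.24 in AR113Q. All AR113Q arrays were below the WT arrays, at a log2 fold change of -0.13 (SE 0.13, adjusted p = 0.47). Its mineralocorticoid relative Nr3c2 was dim, with -0.11. Esr1 and Esr2, the estrogen receptor genes, had log2 fold changes of -0.40 and -0.17 (adjusted p = 0.135 and 0.42), or -0.26 for Esr1 without WT replicate 3 and -0.08 for Esr2 without WT replicate 2. Esr1 was at 7.50 to 8.14 in WT and 7.21 to 7.49 in AR113Q without overlap.

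Target genes of the glucocorticoid receptor stood beside this small difference. Of 19 tested genes above background in both genotypes 10 were upregulated and 0 downregulated, with a median log2 fold change of 1.60. Foxo3 was above background on 0 WT and 3 AR113Q arrays, so it entered only through AR113Q muscle, and its difference is given as at least 1.60-fold and not counted. For this bound each WT array was set to its lowest signal well above background, or to the probe's own value where that was higher. The median with Foxo3 at that bound was 1.52. The number upregulated was 7 to 10 with each array left out in turn, and without AR113Q replicate 1 there was 1 downregulated gene. The metallothionein gene Mt2 was at 11.27, 13.22, 11.66 and 14.61 in WT and at 16.06, 17.09 and 16.89 in AR113Q, a log2 fold change of 3.99 (adjusted p = 0.00384). Without WT replicate 4 it was 4.63. Sesn1, a stress-induced gene, was at 4.75, 10.56, 10.08 and 10.06 in WT and at 13.39, 13.57 and 13.61 in AR113Q, a log2 fold change of 4.66 (adjusted p = 0.0198). WT replicate 1 stood far below the other WT arrays, and without it the log2 fold change was 3.29. The Sesn1 call was lost without AR113Q replicate 1 (adjusted p = 0.0566) or AR113Q replicate 2 (0.0561). As background, these genes are induced by other factors too, p53 for Sesn1 and metals for Mt2. Among genes for glucocorticoid supply and receptor chaperones, Fkbp5, a co-chaperone gene that is also in the target list, had 1.65 and H6pd, whose product feeds the cortisone-reducing enzyme, 1.06, while the co-chaperone gene Fkbp4 had -1.31. The Fkbp4 call was lost with normexp background correction (-0.98) and with the authors' values (-0.90). The H6pd call was lost without AR113Q replicate 1 or AR113Q replicate 2 and with the authors' values.

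Neither thyroid hormone receptor gene passed the test. Thra was at 11.00 to 11.19 in WT and at 10.95, 11.25 and 10.26 in AR113Q, a log2 fold change of -0.29 (adjusted p = 0.343), or -0.01 without AR113Q replicate 3. Thrb was at 7.84, 7.82, 8.43 and 7.82 in WT and at 7.47, 7.30 and 7.80 in AR113Q, a log2 fold change of -0.45 (adjusted p = 0.12), without overlap, or -0.30 without WT replicate 3. Of 4 tested genes of thyroid hormone supply 2 were downregulated, the hormone-binding protein gene Crym at -1.69 and the transporter gene Slc16a10 at -1.18, and of 11 target genes 3 were downregulated and 1 upregulated. The Slc16a10 call was lost without WT replicate 1, WT replicate 4, AR113Q replicate 2 or AR113Q replicate 3, and also with normexp background correction (-0.60) and with the mean over its probes (-0.44). With the authors' values both calls were lost, with Crym at -0.99. The number of target genes upregulated was 0 without WT replicate 1 or AR113Q replicate 1, 2 without WT replicate 2 or AR113Q replicate 2, and 3 without WT replicate 4.

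Estrogen-related receptors control mitochondrial and slow fiber genes, and 2 of them differed more between arrays of a genotype than between genotypes. Esrrb was at 5.44, 7.88, 7.79 and 6.41 in WT and at 6.12, 6.39 and 8.91 in AR113Q (log2 fold change 0.26, adjusted p = 0.816), and leaving out 1 array gave -0.62 (without AR113Q replicate 3) to 0.77 (without AR113Q replicate 1). Esrrg was at 5.65, 6.89, 7.64 and 6.31 in WT and at 5.07, 5.38 and 7.50 in AR113Q (log2 fold change -0.64, adjusted p = 0.452), with -1.40 and -0.19 when the same arrays were left out. The highest arrays were WT replicates 2 and 3 and AR113Q replicate 3 for both genes. The summed intensity of 10 slow fiber markers was 37569 and 39388 intensity units on these WT arrays and 96096 on AR113Q replicate 3, against 6455 to 7499 on the other 4 arrays.

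**Figure D5:**
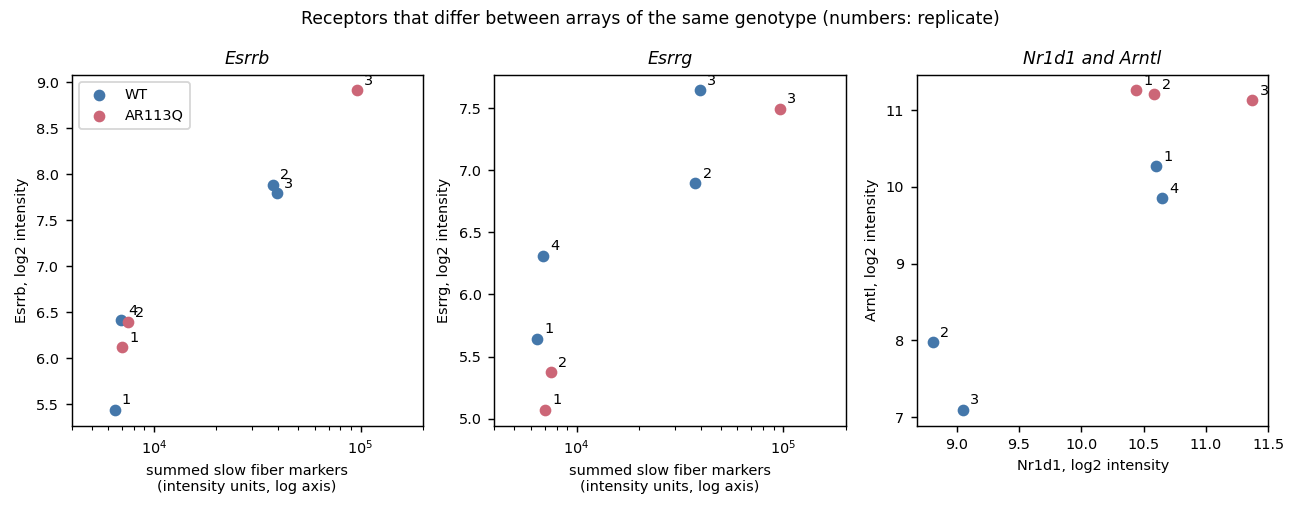
Left and middle, Esrrb and Esrrg (log2 intensity, y axis) against the summed intensity of 10 slow fiber markers (intensity units, log axis); right, Arntl against Nr1d1 (both log2 intensity); each point is 1 array, blue for WT and red for AR113Q, numbered by replicate. The arrays with slow fiber sums of 37569 and more are the 3 highest for both receptors, and WT replicates 2 and 3 are the lowest for both clock genes.

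The median log2 fold change of the slow fiber markers moved from 0.14 to -1.28 without AR113Q replicate 3 and to 1.01 without AR113Q replicate 2, and the part of fiber type in the receptor values was not tested. Within slide 2, where the WT array is rich in slow fiber markers and the AR113Q array is not, the differences were -1.76 for Esrrb and -1.82 for Esrrg. Esrra, the third member, was at 11.85, 12.24, 12.08 and 12.15 in WT and 10.83, 11.69 and 12.09 in AR113Q, at a log2 fold change of -0.54 (adjusted p = 0.162) and -1.41 within slide 2. Without AR113Q replicate 1 it was -0.19, and without AR113Q replicate 3 it was -0.82 (adjusted p = 0.0387). Of 16 tested target genes 2 were downregulated, the angiogenic factor gene Vegfa at -2.52 and the muscle coregulator gene Perm1 at -2.49, and their median was -0.16. Perm1 was at 11.41, 12.21, 12.19 and 11.90 in WT and at 7.77, 9.14 and 11.39 in AR113Q. Its call was lost without WT replicate 2, WT replicate 3, AR113Q replicate 1 (-1.66) or AR113Q replicate 2, and without AR113Q replicate 3 its log2 fold change was -3.47. The number of downregulated targets was 1 in each case where the Perm1 call was lost, and 3 without AR113Q replicate 3.

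Corepressors silence unliganded receptors, and coactivators carry the response to ligand. Of 12 tested corepressor genes 4 were upregulated, led by the scaffold genes Sin3a (1.94) and Sin3b (1.54), and 1, Hr, was downregulated at -1.21, with a median log2 fold change of 0.51. The number upregulated was 4 with each array left out in turn, while the Hr call was lost without WT replicate 2, AR113Q replicate 1 or AR113Q replicate 3. Of 17 tested coactivator genes above background in both genotypes 1 was upregulated, Ep300 (1.18, above background on 3 of the 4 WT arrays), and 1 downregulated, Perm1, with a median log2 fold change of 0.08. Smarcd1 entered only through AR113Q muscle, with 0 WT and 3 AR113Q arrays above background, and is not counted, its difference being at least 2.02-fold. The Ep300 call was lost without WT replicate 1 or AR113Q replicate 1, with scaling to the 75th percentile (0.97), with normexp background correction (0.32) and with the authors' values (0.19). The number of coactivator genes downregulated was 0 without WT replicate 3 or AR113Q replicate 1 and 2 without AR113Q replicate 3. Neither vitamin D enzyme gene tested, Cyp27a1 or Cyp2r1, passed the test.

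The remaining tested members were the dim NR5 genes. Nr5a1, on 3 arrays of each genotype, had a log2 fold change of 0.05, and Nr5a2, on 2 of each, had 0.32, with 0.03 to 0.77 when 1 array was left out. The genotypes overlapped for both genes, and no difference was detectable at this signal.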

How the data were processed

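Total RNA of quadriceps muscle was labelled with Cy3 and scanned on single-colour arrays. The authors extracted spot intensities with Agilent Feature Extraction 10.7.3.1, and the deposited processed intensity is background-subtracted and detrended. The deposited authors' table holds quantile-normalized log2 values and served as an alternative. Here log2 processed intensities, without control spots and outlier spots, were quantile normalized, and spots of a probe averaged. Probes were kept where 3 or more of the 7 arrays measured them above background, and the brightest stood for the gene. A probe annotated off its gene's chromosome was used only where no other was kept. Of 39429 probes 28324 were renamed by accession from RefSeq (GRCm38.p6), and the others kept the array's names. Positions of probes come from the array annotation (mm9), and no gene model of that build was used, so exon and UTR positions are not given.

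The comparison of genotypes used lmFit and eBayes of limma 3.58.1 (R 4.3.3, 2-sided), with Benjamini-Hochberg adjustment over 16577 genes, or over all kept probes where said, tested on simulated data first. An exact permutation test of 3 against 4 arrays cannot go below a p of 0.0571 and was not used. The genes named were all members and, from each list of cofactors, supply and target genes, up to 2 DEGs in each direction, besides genes that another result turns on. Members and lists were chosen with earlier results of these data known. The alternatives were other scaling, background correction, filters, probe rules, slide and replicate blocks, and leaving out each array. The level of the mutated gene is not reported here.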

Additional observations from a re-analysis of the deposited data

Results flagged for a closer look

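Thrb was at 8.43 in WT replicate 3, while the other WT arrays were at 7.82 to 7.84, so that 1 array stood far from the others of its genotype. The gap made up 0.969 of the range of the WT values, above Dixon's 95% critical value for 4 samples. Of 33 members tested this was the only one, where chance flags about 1 in 20 groups.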

How the results depend on the processing

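The numbers of upregulated and downregulated members, 3 and 3, became 6 and 5 without the fold change threshold, and 0 and 0 with slide as a fixed block. In that limma fit 11 of 33 members, and 6194 of 16577 genes, had an unadjusted p of 0.05 or lower. By the authors' values 1 member was upregulated. Leaving out each array gave 2 to 4 upregulated and 3 to 3 downregulated members. With the replicate block the numbers were 3 and 3, but Rarg, Rxrb, Nr2f1 and Nr2f2 no longer passed the test (adjusted p = 0.104, 0.0701, 0.11 and 0.0635). The same-numbered arrays share only a number, since the correlations of their deviations were 0.0357, -0.0223 and 0.156 and only 2 of 3 numbers correlated best with their own. Over all genes the 4043 DEGs became 1757 with normexp, 1359 with the authors' values and 0 with slide as a fixed block in limma, where 6194 genes had an unadjusted p of at most 0.05. Of the pathway genes named, Arntl, Hr, Perm1, Sesn1, Slc16a10 and Ucp3 lost their calls with no filter on dim probes (adjusted p from 0.0562 to 0.0751), and Aldh1a1, Ep300, Slc16a10 and Ucp3 with the replicate block. None of the 6 called members changed sign in the 18 other settings. Of the 27 others 15 did in at least 1 setting, 13 of them with a log2 fold change under 0.35 in size, besides Ppara (-0.25 with slide as a fixed block) and Rora (-0.48 with the mean over probes). The cause was not tested. The 13 members that were not tested lay near or under background, where these arrays give only bounds.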
